A study of Homo sapiens with 9 samples.

Results

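The replication-dependent histone genes, which supply the bulk of the H1, H2A, H2B, H3 and H4 proteins made during DNA synthesis, were followed across 3 cultures of H1, a human embryonic stem cell line. They were taken by their symbols, and 72 of the 40332 symbols in the count table are described here. Of the 72, 69 lie in the histone gene clusters, 55 on chromosome 6 (HIST1), 11 and 2 on chromosome 1 (HIST2 and HIST3) and 1 on chromosome 12 (HIST4). The other 3 are the linker histone genes H1-10, H1-7 and H1-8, which lie outside the clusters on chromosomes 3, 12 and 3 and are not replication-dependent genes. The name of the family therefore fits the 69, called cluster genes here, and the 3 are described apart from them.

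RNA was sequenced from 9 libraries, 3 per culture, all of wild-type H1 cells, a line from 1 embryo. The first culture was kept in PXGL, a medium used to hold human cells in a naive pluripotent state. The second was kept in the basal medium N2B27, for a time that the labels do not state. The third was kept in N2B27 with 5 µM EPZ-6438 for 3 days. EPZ-6438 inhibits EZH2, the subunit of the Polycomb complex PRC2 that methylates histone H3, and the series as a whole asks how EZH2 bears on the choice between pluripotency and primitive endoderm. The labels give 3 libraries per culture, whereas the series' design text speaks of triplicate samples and of duplicate RNA-seq for the H1 cells, and which holds was not settled; n = 3 counts libraries. No label ties the replicates to separate cultures; the p-values reflect how far these libraries differ among themselves, and that spread may be technical.

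Replication-dependent histone genes are transcribed in S phase, when new DNA needs new histones, and their messages are as a rule the only ones in animal cells that end without a poly(A) tail. A short stem-loop after the stop codon is bound by the stem-loop binding protein SLBP, the U7 particle guides a cut just beyond it, and the message is destroyed when replication stops. Some of these genes also make longer, polyadenylated messages that read past the stem-loop to a downstream signal, often in cells that leave the cycle. Linker histone genes outside the clusters have ordinary polyadenylated messages.

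The stem-loop is the element that sets these messages apart. The 5 bases on either side of it are printed below in lower case and the stem-loop itself in capitals, as DNA on the transcript's strand, from the GENCODE release 29 transcripts on GRCh38. The first 5 carry the 5 forms found, each in the member with the most counts of its form. The remaining 4 are genes named in the results that follow.
H2AC25: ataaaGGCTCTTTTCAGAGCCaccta
H4C16: caaaaGGCCCTTTTCAGGGCCcccaa
H2BC5: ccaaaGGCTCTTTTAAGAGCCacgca
H4C15: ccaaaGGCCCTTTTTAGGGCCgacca
H2AC11: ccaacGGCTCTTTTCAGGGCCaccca
H2AC6: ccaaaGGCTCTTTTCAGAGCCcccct
H4C8: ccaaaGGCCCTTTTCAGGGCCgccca
H2AC18: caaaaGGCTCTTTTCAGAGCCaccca
H2AC19: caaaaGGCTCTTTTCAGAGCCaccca
These lie at chr1:228457364-228457389 (H2AC25, minus strand), chr12:14770719-14770744 (H4C16, minus), chr6:26158582-26158607 (H2BC5, plus), chr1:149860764-149860789 (H4C15, minus), chr6:27133510-27133535 (H2AC11, plus), chr6:26124664-26124689 (H2AC6, plus), chr6:26285126-26285151 (H4C8, minus), chr1:149842218-149842243 (H2AC18, minus) and chr1:149851569-149851594 (H2AC19, plus), each in the exon downstream of the stop codon.

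The pattern searched was GG, any 3 bases, TTTT, any base, A, any 3 bases and CC, on the transcript's strand only. It was found in the annotated transcripts of 30 of the 69 cluster genes. Of the 29 cluster genes annotated with at least 100 bases after the stop codon, 24 held it within the first 100, against 6 of 18725 other protein-coding genes (0.0320%). The form in H2AC25 was shared by 17 members, whose totals over the 9 libraries ran from 647 counts for H2AC25 to 9 for H2BC18, and to 4 for H3C14 and 0 for H2AC19, which have near-identical copies and so no level of their own. The form in H4C16 was held by 5, that in H2BC5 by 4, that in H4C15 by 3 and that in H2AC11 by 1. Members with one and the same stem-loop thus differed widely in counts. For the other 39 cluster genes, whose annotated exons have a median length of 393 bases, no match was found, which says only that these letters are not in those models.

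Counts of the cluster genes were very low. All 69 together had 5568 counts over the 9 libraries, out of 14482105 to 18358530 counts per library, which was 0.00296% to 0.00478% of a library. Levels are given in CPM, counts scaled to a common library size with edgeR's TMM factors, on which 3 counts in a library correspond to 0.164 to 0.211 CPM. Of the 69, 5 had no count in any library (H2AC1, H2AC19, H2BC1, H4C13 and H4C7), 13 had 1 to 9 counts in all, 35 had 10 to 99 and 16 had 100 or more. A count in each of the 9 libraries was found for 24. The filter for low counts left 18 of the 69 for testing, with H1-10 of the linker genes outside the clusters, and these 18 held 82.4% of the cluster counts. The 51 below the filter had a median total of 13 counts, and the highest of them, H2AC8, had 71.

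Of the linker histones outside the clusters, H1-10 alone gave more counts than the 69 cluster genes together. H1-10 (chr3:129314771-129316277, minus strand), a widely expressed linker histone whose gene overlaps another on the opposite strand, had 7050 counts, against 5568 for the 69. H1-7, of the male germ line, had no count, and H1-8, of the oocyte, had 1.

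**Figure D1:**
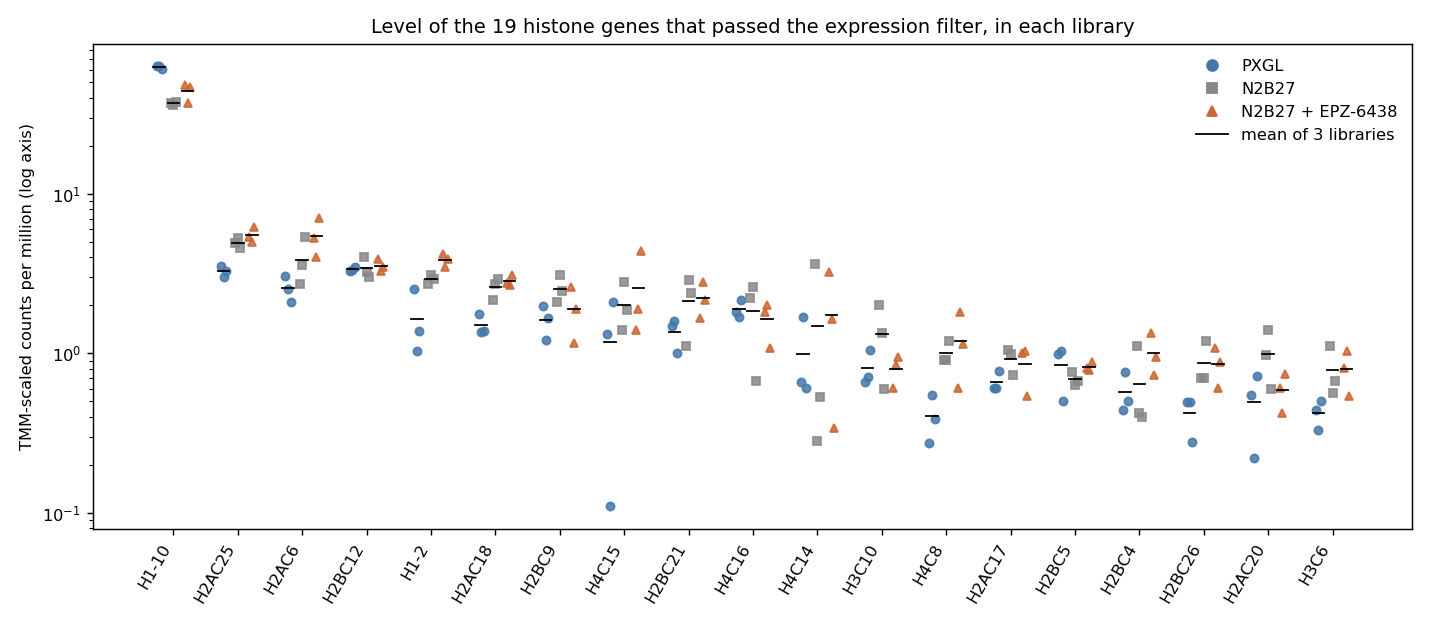
TMM-scaled CPM (log axis) of 19 histone genes that passed the filter for low counts, 1 point per library and a bar at the mean of the 3 libraries of each culture. H1-10 lies between 36.3 and 63.4 CPM in all 9 libraries, and the 18 cluster genes lie at or below 7.04 CPM.

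The counts were spread unevenly over the 5 classes. H2A genes (17 in the clusters) held 37.0% of the cluster counts, H2B genes (18) 28.8%, H4 genes (15) 17.6%, and H1 genes (6) and H3 genes (13) 8.24% each. Of the H2A genes H2AC25, H2AC6 and H2AC18 took the most, with 647, 559 and 327 counts. Of the H2B genes H2BC12, H2BC9 and H2BC21 did, with 496, 285 and 270 counts. H4C15, H4C16 and H4C14 led the H4 genes with 269, 258 and 198 counts, and H3C10, H3C6 and H3C3 the H3 genes with 138, 94 and 48. Of the 6 cluster H1 genes only H1-2 was tested, with 395 counts; H1-1, H1-3, H1-4 and H1-5 had 5, 13, 27 and 18, and the testis gene H1-6 had 1. H2AC1 and H2BC1, also of the testis, had none.

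Members with known polyadenylated messages took most of the counts. A list of 14 cluster genes with known polyadenylated messages held 64.0% of the cluster counts, and 11 of the 14 passed the filter, against 7 of the other 55. Its members ran from H2AC25 with 647 counts and H2AC6 with 559 down to H2BC11 with 44, H2BC8 with 30 and H2AC19 with 0. The median total was 228 counts for the 14 and 15 for the 55. H4C14, with 198 counts, is on the list, and its near-identical copy H4C15, with 269, is among the 55. The share of each set depends in part on that placing. The list was drawn up with results of these data known, so the difference is a description.

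Counts were also highest where the annotation reaches past the stem-loop, but per length these genes stood between the other groups. In 22 cluster genes the annotation runs at least 100 bases past the stem-loop, in 8 it ends nearer to it, and in 39 it holds no match. The 22 held 58.2% of the cluster counts with a median total of 82.5, against 32.5 for the 8 and 14 for the 39, and 11 of the 22 passed the filter against 7 of the other 47. A poly(A) signal, AATAAA or ATTAAA on the transcript's strand in the last 50 annotated bases, was present in 23 cluster genes with a median total of 94 counts, and absent in 46 with a median of 14.5. Longer models gather more reads. Per kilobase of annotated exon the medians were 0.252 CPM for the 22, 0.490 for the 8 and 0.210 for the 39, and the 22 no longer stood highest.

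On the scale of CPM per kilobase the highest cluster genes were H2BC12 (9.04), H2AC25 (5.11), H1-2 (4.38) and H2AC18 (4.22), all on the list of polyadenylated messages. Below them H2AC6 stood at 2.38 and H4C8 at 0.401. H1-10 stood at 31.8. The lengths come from GENCODE 29 and may differ from the models that were counted; H2BC12, annotated with 381 bases, may have been counted over a longer one, and all values per length carry that limit.

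**Figure D2:**
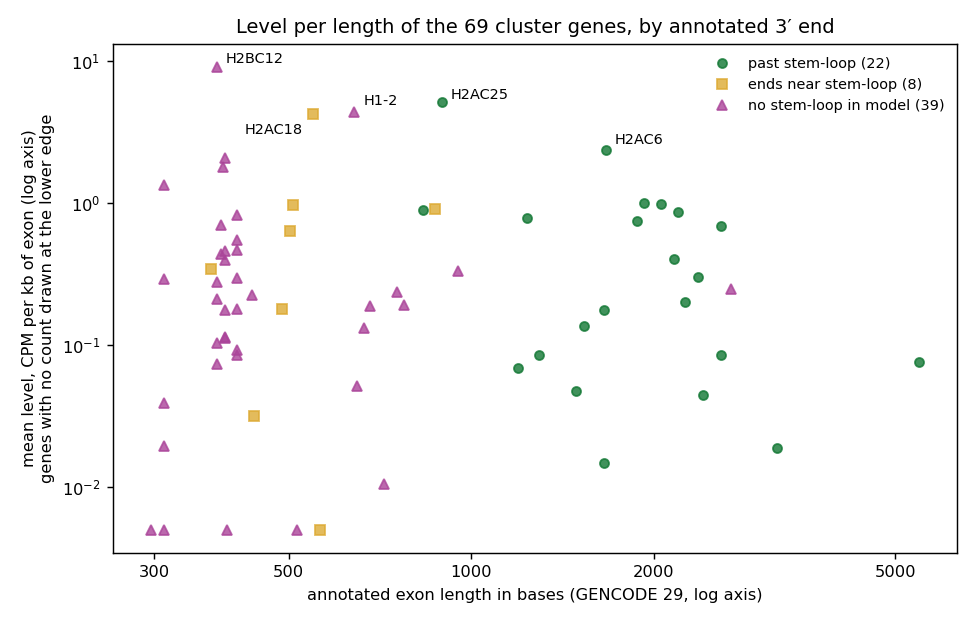
Mean level over the 9 libraries in CPM per kilobase of annotated exon (log axis) against annotated exon length (log axis) for the 69 cluster genes, marked by whether the annotation runs at least 100 bases past the stem-loop, ends nearer to it or holds no match. The 5 genes with no count sit at the lower edge, and H2BC12 at 9.04 and H2AC25 at 5.11 CPM per kilobase are the highest.

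Other RNAs that lack an ordinary poly(A) tail were counted in the same libraries, since the labels name both polyA RNA and a kit that depletes ribosomal RNA. Of 36 on a list of such RNAs, 25 had no count, among them RMRP, the RNA of RNase MRP. RN7SK, which holds back the elongation factor P-TEFb, had 8 counts over the 9 libraries, RN7SL1 of the signal recognition particle had 124, and TERC of telomerase had 4. Most of these RNAs are short or have many copies in the genome. MALAT1, a long nuclear RNA whose end is protected by a triple helix, stood at 90.5 ± 12.5, 78.8 ± 1.38 and 95.3 ± 4.48 CPM (SD, n = 3) in PXGL, N2B27 and N2B27 with EPZ-6438. Of the ribosomal RNAs the 4 nuclear ones in the table had no count, and mitochondrial MT-RNR2 had 1247852. Which library method gave these levels was not tested.

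Nearly identical copies limit what single members show. In GENCODE 29, 12 pairs of cluster genes, made of 18 genes, share a stretch of 100 bases. H2AC18 and H2AC19, neighbours on chromosome 1 on opposite strands, have models that match over 100% and 96.8% of their 100-base windows, and 327 counts went to H2AC18 and 0 to H2AC19. H3C14 and H3C15 match over 100%, with 4 and 40 counts. The value of such a gene stands for the pair.

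H4C14 and H4C15, both on chromosome 1, showed how the split can vary. In counts, PXGL replicates 1 to 3 had 12, 31 and 11 for H4C14 and 24, 2 and 38 for H4C15. The N2B27 libraries had 52, 4 and 8 for H4C14 and 20, 40 and 28 for H4C15. With EPZ-6438 they had 48, 27 and 5 against 21, 31 and 65. A library high in one was low in the other in each culture, and the libraries of a culture differed more than the cultures did. Their sum was 2.17 ± 0.49, 3.50 ± 1.35 and 4.297 ± 0.672 CPM (SD, n = 3) in PXGL, N2B27 and N2B27 with EPZ-6438, and of the cultures only PXGL and EPZ-6438 did not overlap in it. Neither gene passed the test in any comparison. Another gene overlaps 15 of the cluster genes, on the opposite strand for 10, and without a stated strand setting such reads cannot be told apart.

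**Figure D3:**
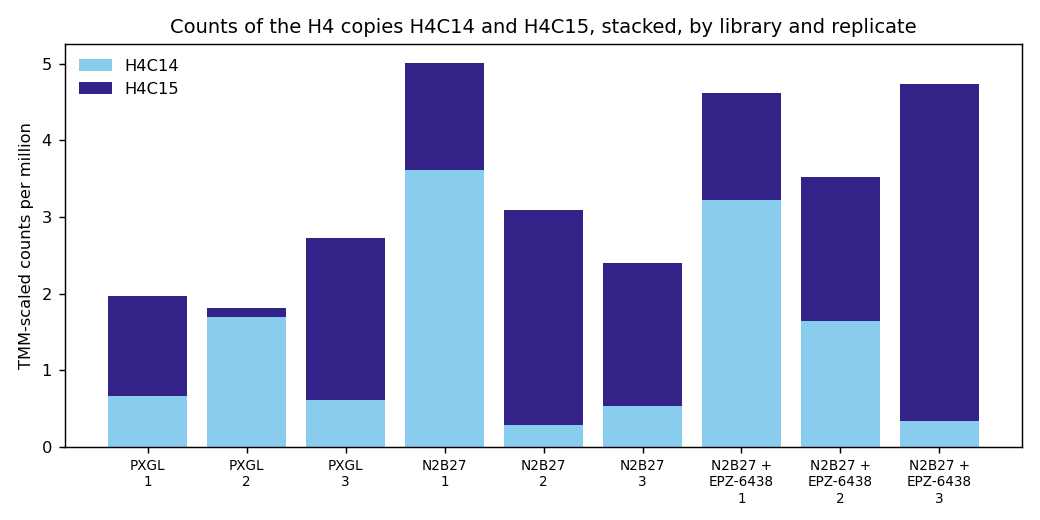
TMM-scaled CPM of H4C14 and H4C15 stacked for each of the 9 libraries, by culture and replicate number. The share of H4C14 varies widely within each culture, while the height of the stack stays between 1.81 and 5.01 CPM.

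Some features of the libraries moved with the cultures and their part in the results was not tested. All 9 libraries expressed pluripotency genes, with POU5F1 at 1319 ± 163, 1425 ± 28.8 and 1177 ± 14.2 CPM (SD, n = 3). Of 8 pluripotency markers, 5 rose and 1 fell in N2B27 against PXGL by edgeR. With EPZ-6438 all 8 fell against N2B27, and 5 rose and 2 fell against PXGL. Of 6 naive markers, 0 rose and 3 fell in N2B27 against PXGL. With EPZ-6438, 3 rose and 2 fell against N2B27, and 2 rose and 4 fell against PXGL. The shares of all tested genes in each comparison are given below. The summed level of 15 markers of fibroblasts, hypoblast and trophectoderm was 31.1 to 37.9 CPM in PXGL, 180 to 193 CPM in N2B27 and 123 to 131 CPM with EPZ-6438. THY1, a surface protein of fibroblasts and of primed pluripotent cells, made up 118 ± 8.39 CPM of it in N2B27, while LUM and DCN of fibroblasts had 2 counts each over the 9 libraries. COL1A2, a collagen chain of fibroblasts and other mesenchymal cells, stood at 2.48 ± 0.26, 28.3 ± 1.28 and 23.3 ± 0.69 CPM, and COL1A1 at 14.01 ± 2.68, 25.6 ± 0.37 and 19.2 ± 0.93 CPM. GATA6 of the hypoblast stood at 0.312 ± 0.033, 0.731 ± 0.268 and 7.96 ± 1.65 CPM. Of the 11 of these 15 markers tested, 5 rose and 4 fell in N2B27 against PXGL by edgeR, beside 27.3% and 28.7% of all tested genes. THY1, COL1A2, COL1A1 and GATA6 all had higher means in N2B27 than in PXGL. GATA6 in PXGL, at 0.312 CPM, was not far above the 0.164 to 0.166 CPM of 3 counts there. The 4 that fell are not named here, so the named genes do not stand for the list. With EPZ-6438, 9 rose and 0 fell against PXGL (28.1% and 28.0% of all), and 5 rose and 3 fell against N2B27 (14.2% and 10.6%). PXGL replicate 1 stood apart from its replicates, with 7.22% of counts on ribosomal protein genes against 5.92% and 5.51%.

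The first comparison set N2B27 with EPZ-6438 for 3 days against N2B27 alone, whose time is not stated. The inhibitor and any difference in time in N2B27 therefore cannot be told apart. None of the 18 tested cluster genes passed the test, and neither did H1-10. The cultures overlapped for H1-10, at 37.0, 36.3 and 37.6 against 48.5, 37.1 and 46.9 CPM (log2 fold change 0.26, SE 0.094, edgeR adjusted p = 0.0577, n = 3 libraries each). EPZ-6438 replicate 2 was the library in the N2B27 range, and without it the edgeR adjusted p for H1-10 was 0.00682; over all alternatives it ran from 0.00682 to 1. In bulk RNA, fewer cells of a type and less RNA per cell cannot be told apart.

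Of the 18 tested cluster genes 0 were called by edgeR's quasi-likelihood test in this comparison, where 24.7% of all 15179 tested genes were called (14.2% higher and 10.6% lower). At an unadjusted p under 0.05 the count was also 0, and DESeq2 called 0 of the 36 for which it gave an adjusted p. Their median log2 fold change was 0.09, beside 0.01 for all tested genes, and 12 of the 18 were positive. Their median SE was 0.44 on the log2 scale, so modest changes were not detectable at this depth for most of them. The better counted ones had narrower intervals. The approximate 95% interval of the log2 fold change was -0.20 to 0.52 for H2AC25 and -0.37 to 0.47 for H2BC12. The cluster genes together had 43.5, 43.6 and 39.5 CPM in N2B27 and 45.3, 42.4 and 47.7 CPM with EPZ-6438, with overlap.

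**Figure D4:**
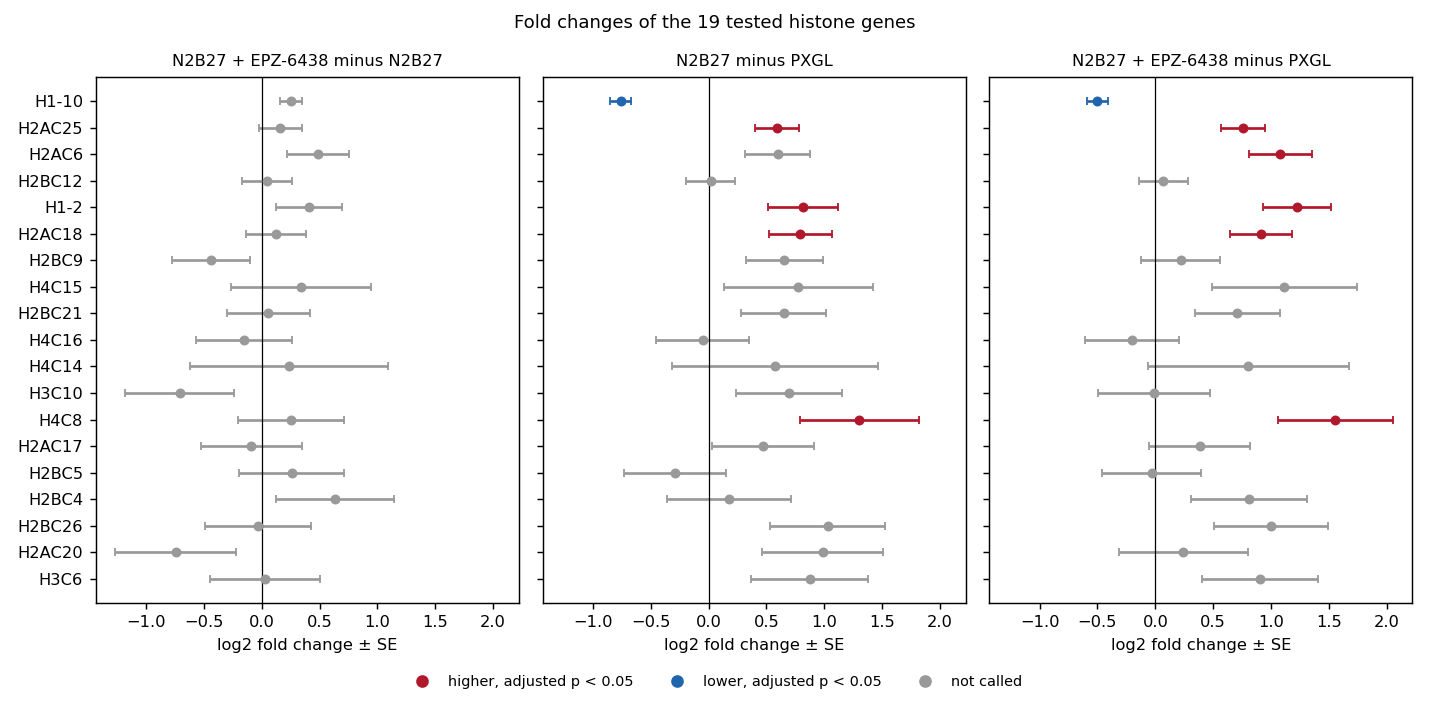
Log2 fold changes with their standard errors for 19 tested histone genes in the 3 comparisons, ordered by mean level, with genes past an edgeR adjusted p of 0.05 in colour. No gene drawn in the left panel is called; in the other panels H1-2, H2AC18, H2AC25 and H4C8 lie to the right of 0 and H1-10 to the left.

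The second comparison set N2B27 against PXGL, the change from the naive to the basal medium. H1-10 fell, 4 of 18 cluster genes rose and the other 14 were not called. H1-10 had 63.4, 63.4 and 60.8 CPM in PXGL and 37.0, 36.3 and 37.6 CPM in N2B27, and fell by 0.76 on the log2 scale (SE 0.093, edgeR adjusted p = 2.95e-06, n = 3 libraries each). Every N2B27 library was below every PXGL library for H1-10. Over all tested genes 56.0% were called in this comparison, 27.3% higher and 28.7% lower, so 4 of 18 higher (22.2%) is no more than the share among all genes.

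Those 4 were H1-2, H2AC18, H2AC25 and H4C8, all from the list of polyadenylated messages. That list holds 11 of the 18 tested cluster genes and was drawn up with results of these data known, so this is a description only. H2AC25 (an H2A gene of the small HIST3 cluster) had 3.51, 3.01 and 3.27 CPM in PXGL and 4.94, 5.27 and 4.60 CPM in N2B27, a log2 fold change of 0.59 (SE 0.19, edgeR adjusted p = 0.0139). H1-2, a main linker histone of dividing cells, had 2.52, 1.04 and 1.39 against 2.71, 3.09 and 2.93 CPM (0.82, SE 0.30, edgeR adjusted p = 0.0295). PXGL replicate 1 was the highest of the PXGL libraries for H1-2 and lay just below the N2B27 range. H2AC18, standing for its pair with H2AC19, had 1.75, 1.37 and 1.39 against 2.16, 2.74 and 2.93 CPM (0.79, SE 0.27, edgeR adjusted p = 0.0194). H4C8, an H4 gene, had 5, 10 and 7 counts against 13, 13 and 18 (1.30, SE 0.51, edgeR adjusted p = 0.0394).

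The libraries of the cultures did not overlap for 7 of the 18 tested cluster genes, these 4 among them. The share of all genes without overlap is not given here, so this is a description. The calls of the 4 rest on few counts. The number called was 1 without PXGL replicate 2, without PXGL replicate 3, without N2B27 replicate 2 or without N2B27 replicate 3, and with 1.5-fold required it was 0. The sign stayed positive for each of the 4 in all of these. Without PXGL replicate 1, the library that stood apart, 4 were called as well, with H2AC6 in place of H4C8, and the log2 fold change of H1-2 was 1.26. Of the 14 not called, H2BC12 had 3.29, 3.34 and 3.50 CPM in PXGL and 4.03, 3.23 and 3.00 CPM in N2B27, close to level. H4C16 had 1.81, 1.70 and 2.16 against 2.23, 2.60 and 0.666 CPM. The median log2 fold change of the 18 was 0.65, beside -0.03 for all tested genes, and 16 of 18 were positive.

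Summed over the 69 cluster genes the level was 31.9, 28.8 and 30.0 CPM in PXGL and 43.5, 43.6 and 39.5 CPM in N2B27, and the cultures did not overlap. The means were 30.3 ± 1.57 and 42.2 ± 2.35 CPM (SD, n = 3), a ratio of 1.40. The sums of H2A genes (10.6 ± 0.93 and 15.8 ± 0.75 CPM) and of H2B genes (9.72 ± 0.43 and 11.97 ± 0.445 CPM) did not overlap either, while those of H1, H3 and H4 genes did. With H1-10, H1-7 and H1-8 included the sum went the other way, at 92.8 ± 2.35 and 79.2 ± 1.84 CPM, since H1-10 holds more counts than the 69. The sum over the 14 polyadenylated members was 18.8 ± 1.37 and 26.04 ± 1.005 CPM and that over the other 55 was 11.4 ± 1.38 and 16.2 ± 1.61 CPM, neither with overlap. The sums carry no test.

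**Figure D5:**
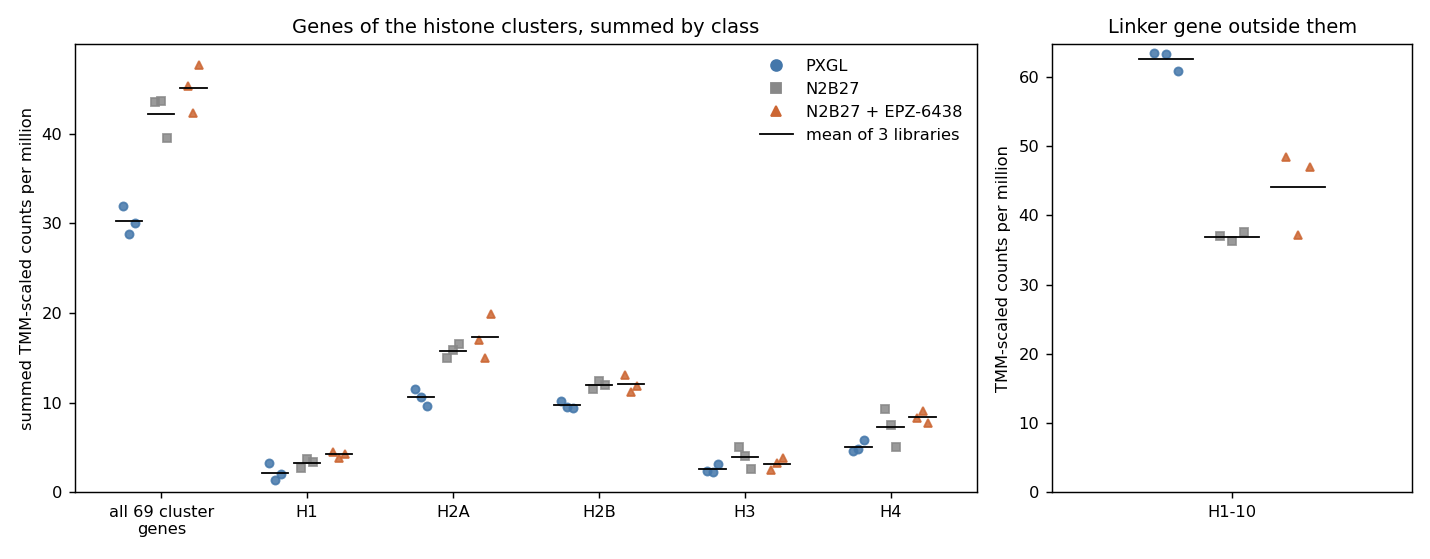
Left, summed TMM-scaled CPM of the 69 cluster genes and of each class, 1 point per library with bars at the mean of 3; right, H1-10. PXGL lies lowest for the 69 genes together (28.8 to 31.9 CPM), whereas for H1-10 it lies highest (60.8 to 63.4 CPM).

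The third comparison set N2B27 with EPZ-6438 against PXGL, and it shares its libraries with both others. H1-10 fell and 5 of 18 cluster genes rose. H1-10 fell by 0.50 on the log2 scale (SE 0.091, edgeR adjusted p = 0.000184). H1-10 was thus highest in PXGL. Among all tested genes 56.1% were called, 28.1% higher and 28.0% lower, and the 5 of 18 cluster genes make 27.8%, near that share.

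The 5 were H1-2, H2AC18, H2AC25, H2AC6 and H4C8. H2AC6, an H2A gene of the HIST1 cluster known to make a long polyadenylated message, had 3.07, 2.52 and 2.11 CPM in PXGL and 5.30, 4.01 and 7.04 CPM with EPZ-6438 (log2 fold change 1.08, SE 0.27, edgeR adjusted p = 0.00302). Its N2B27 libraries, at 2.71, 3.58 and 5.33 CPM, overlapped with both other cultures. H1-2 had 4.22, 3.46 and 3.93 CPM with EPZ-6438, above all libraries of both other cultures, and against PXGL its log2 fold change was 1.23 (SE 0.29, edgeR adjusted p = 0.00195). H1-2 was the only one of the 5 that overlapped with neither culture. Against N2B27 it was not called (0.41, SE 0.28, edgeR adjusted p = 0.321). H2AC25 had 5.36, 4.98 and 6.23 CPM (0.76, SE 0.19, edgeR adjusted p = 0.00259). H2AC18 had 2.75, 2.67 and 3.12 CPM (0.92, SE 0.27, edgeR adjusted p = 0.00777). For both the EPZ-6438 libraries overlapped with those of N2B27. H4C8 had 9, 30 and 17 counts (1.56, SE 0.50, edgeR adjusted p = 0.0140), and without EPZ-6438 replicate 2, its highest library, the edgeR adjusted p was 0.114 (0.00648 to 0.114 over all alternatives).

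The median log2 fold change of the 18 cluster genes was 0.78, beside 0.00 for all tested genes, and 15 were positive. The 69 together had 45.1 ± 2.67 CPM with EPZ-6438 (SD, n = 3), 1.49 times the PXGL mean. The 14 polyadenylated members stood at 30.5 ± 1.83 CPM, above both other cultures without overlap. The other 55, at 14.7 ± 1.64 CPM, overlapped with N2B27 and lay above PXGL. H4C15 is counted among the 55, while its near-identical copy H4C14 is among the 14. H4C15 had 1.39, 2.81 and 1.87 CPM in N2B27 and 1.41, 1.88 and 4.40 CPM with EPZ-6438. The overlap of the 55 with N2B27 depends on where H4C15 is placed. No test of a difference between these lists was made.

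Genes of the machinery that makes and ends histone messages were called in both directions. Of 22 genes for transcription and end processing, 8 rose and 8 fell in N2B27 against PXGL (median log2 fold change 0.06), beside 27.3% and 28.7% of all tested genes, and 1 rose and 2 fell with EPZ-6438 against N2B27 (median -0.04), where 24.7% of all tested genes were called. SLBP, which binds the stem-loop, stood at 95.1 ± 7.57, 72.9 ± 1.84 and 66.7 ± 1.61 CPM (SD, n = 3) in PXGL, N2B27 and N2B27 with EPZ-6438, and fell by 0.38 on the log2 scale in N2B27 against PXGL (SE 0.071, edgeR adjusted p = 0.000224). NPAT, the coactivator of histone loci, stood at 33.1 ± 5.24, 43.6 ± 3.43 and 42.0 ± 0.96 CPM and rose in N2B27 (0.40, SE 0.11, edgeR adjusted p = 0.00421). SLBP thus fell in N2B27 while NPAT rose. CASP8AP2, a partner of NPAT at the histone locus body, fell by 0.51 (SE 0.12, edgeR adjusted p = 0.00184). LSM11 of the U7 particle fell too, by 0.68 (SE 0.11, edgeR adjusted p = 5.95e-05). None of SLBP, NPAT, CASP8AP2 and LSM11 was called with EPZ-6438 against N2B27 (edgeR adjusted p = 0.211, 0.754, 0.570 and 0.0997).

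Of 17 genes for decay of histone messages, 5 rose and 3 fell in N2B27 against PXGL (median log2 fold change 0.07). Of all tested genes 27.3% rose and 28.7% fell there. ERI1, the exonuclease that trims the stem-loop, rose from 36.4 ± 2.81 to 53.7 ± 4.42 CPM (SD, n = 3; log2 fold change 0.56, SE 0.086, edgeR adjusted p = 3.64e-05). ATR, the kinase of the replication checkpoint, fell by 0.77 (SE 0.12, edgeR adjusted p = 3.14e-05). With EPZ-6438 against N2B27 ATR was the 1 gene of these 17 called, beside 24.7% of all tested genes. It rose there (0.44, SE 0.12, edgeR adjusted p = 0.0130). Of 49 genes of G1/S and S phase, 16 rose and 14 fell in N2B27 against PXGL, and 1 rose and 13 fell with EPZ-6438 against N2B27 (medians 0.05 and -0.12), beside 27.3% higher and 28.7% lower of all tested genes in the former and 14.2% and 10.6% in the latter. HELLS, a chromatin remodeller, was among the latter, at 203 ± 5.82 and 118 ± 1.80 CPM (-0.79, SE 0.066, edgeR adjusted p = 2.13e-07). Of 13 tested genes of CDK inhibition and G1 arrest, 6 rose and 2 fell in that comparison (median 0.33). CDKN1A, an inhibitor of cyclin-dependent kinases, rose from 28.1 ± 2.21 to 88.2 ± 2.83 CPM with EPZ-6438 (1.65, SE 0.085, edgeR adjusted p = 7.19e-10). The share of cells in S phase was not measured, and its part in the histone levels was not tested.

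Of 22 histone chaperone genes, whose proteins carry new histones to DNA, 7 fell with EPZ-6438 against N2B27, beside 10.6% of all tested genes, and 15 were not called. The CAF-1 subunits CHAF1A and CHAF1B were among the 7, with log2 fold changes of -0.39 (SE 0.077, edgeR adjusted p = 0.00132) and -0.45 (SE 0.088, edgeR adjusted p = 0.00113). In N2B27 against PXGL 8 rose and 5 fell, beside 27.3% and 28.7% of all tested genes. The median log2 fold change was -0.09 with EPZ-6438 against N2B27 and 0.09 in N2B27 against PXGL. The tested cluster genes had no member called by edgeR with EPZ-6438 against N2B27, as given above, and a link between the lists was not tested.

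Replication-independent variants, most of whose messages are polyadenylated, ranged from no count to far more counts than any cluster gene. Of 18 listed, 10 were tested, H1-10 among them, with 3072 (MACROH2A2) to 58038 counts (H2AZ1), and the other 8 had 0 to 46. In N2B27 against PXGL 6 rose and 3 fell (median log2 fold change 0.25), beside 27.3% and 28.7% of all tested genes. With EPZ-6438 against N2B27 2 rose and 1 fell (median 0.06), beside 14.2% and 10.6%. The 2 were MACROH2A1 and MACROH2A2, which encode large H2A variants of silent chromatin. MACROH2A1 stood at 4.57 ± 0.61, 22.2 ± 1.93 and 41.7 ± 2.66 CPM in PXGL, N2B27 and N2B27 with EPZ-6438 (SD, n = 3). With EPZ-6438 against N2B27 it rose by 0.91 on the log2 scale (SE 0.11, edgeR adjusted p = 7.57e-06). MACROH2A2 stood at 20.6 ± 2.03, 10.2 ± 0.63 and 32.7 ± 1.42 CPM (1.68, SE 0.11, edgeR adjusted p = 1.00e-08). MACROH2A2 was lowest in N2B27 and highest with EPZ-6438.

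H2AZ1, an H2A variant of promoters, rose from 298 ± 63.0 CPM in PXGL to 492 ± 22.0 CPM in N2B27 (SD, n = 3; log2 fold change 0.72, SE 0.11, edgeR adjusted p = 3.64e-05). H3-3A and H3-3B, which encode the same H3.3 protein, both rose in N2B27, by 0.33 (SE 0.082, edgeR adjusted p = 0.00302) and 0.26 (SE 0.061, edgeR adjusted p = 0.00161). With EPZ-6438 against N2B27 H3-3A fell by 0.34 (SE 0.083, edgeR adjusted p = 0.00595), while H3-3B, at 404 ± 7.71 and 409 ± 9.68 CPM, was not called. H2AX, whose gene can make both stem-loop and polyadenylated messages, stood at 66.4 ± 8.75, 84.6 ± 5.89 and 89.1 ± 10.6 CPM.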

How the data were processed

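Libraries of Trizol-extracted total RNA used a kit that depletes ribosomal RNA, per the labels' protocols, while the labels' molecule field says polyA RNA; which holds was not settled. What the authors deposited is a table of expected counts, estimates that need not be whole, over 40332 symbols. Trim Galore, STAR 2.7.6a, DESeq2 and hg38 are named per the submitters' processing notes. The counting program, annotation and strand: not given in the sources used here. Counts were rounded and filtered with edgeR's filterByExpr (minimum count 10, minimum total 15), leaving 15179 of 22640 genes with a count.

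All 9 libraries entered 1 fit in edgeR 4.0.16 (TMM, robust quasi-likelihood test, R 4.3.3) with Benjamini-Hochberg adjustment over all tested genes and a threshold of 0.05; the script was tested on simulated data. Replicates all differed beyond sampling noise (chi-square at least 2.57 per degree of freedom). Members were placed on GENCODE 29 (GRCh38), 68 by Ensembl ID and 4 by a RefSeq synonym. 1 gene that the name rule matches is not reported here. Members and gene lists were chosen with earlier results of these data known. Named were the 3 members of each class with the highest mean level, members past the threshold, listed polyadenylated and testis members, members with no count and, of the other lists, SLBP, NPAT, CASP8AP2 and genes from the 3 smallest adjusted p per comparison. H2AX, TERC, RMRP, RN7SK, LUM, DCN, COL1A1, COL1A2, POU5F1, H2AC8, H2AC11, the untested H1 genes, the H3 copies and, among the variants, H3-3A, H3-3B and H2AZ1 were chosen after their values were seen. The SE of a log2 fold change is its absolute value over the square root of edgeR's F statistic, and is not itself an edgeR output. The 95% intervals use a normal approximation on that SE, so with few libraries they are narrower than the test allows. Floors cover counting error only. DESeq2 1.42.0, other scalings and filters, a fold threshold, a replicate block and leave-one-out fits were alternatives.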

Additional observations from a re-analysis of the deposited data

How the results depend on the processing

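Counting depth is the main limit: 51 of 69 cluster genes were not tested, and 5 had no count. With H1-10, H1-7 and H1-8 the summed log2 ratio was 0.17 (EPZ-6438 against N2B27), -0.23 (N2B27 against PXGL) and -0.056 (EPZ-6438 against PXGL); over members with whole counts only, which leaves out H1-10, it was 0.083, 0.47 and 0.55, without the 3 highest members (H1-10, H2AC25 and H2AC6) 0.031, 0.45 and 0.48, and over the 69 cluster genes 0.10, 0.48 and 0.58, so the direction in both comparisons with PXGL is set by H1-10. With total counts only it was -0.28 in N2B27 against PXGL. Leaving out 1 library gave 0.13 to 0.25, -0.24 to -0.21 and -0.10 to 0.021, the last without EPZ-6438 replicate 2. Over the 69, other scalings and leaving out each library gave 0.05 to 0.14, 0.43 to 0.53 and 0.53 to 0.62. The alternatives over the 69 and without PXGL replicate 1 in the shared spread were chosen after seeing the data.

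With EPZ-6438 against N2B27 the members called higher were 0. With total counts only 1 was called (H1-10, 0.29, edgeR adjusted p = 0.0361). H1-10 was also the 1 called with only the 2 groups fitted (edgeR adjusted p = 0.00961) and without PXGL replicate 1 in the shared spread (edgeR adjusted p = 0.00905). With no low-count filter the 1 called was H3C2, with 18 counts in all, 12 of them in EPZ-6438 replicate 2. Leaving out 1 library gave 0 to 1. In N2B27 against PXGL the 4 called higher were 1 to 5 when a library was left out. With no low-count filter they were 3, without H4C8 (edgeR adjusted p = 0.0524). With only the 2 groups fitted they were 3, without H1-2 (edgeR adjusted p = 0.0524), and with DESeq2 3. With at least 1.5-fold required, the members higher in N2B27 and in EPZ-6438 against PXGL were 0 and 1, and those lower 0 and 0, against 1 (H1-10) in each. Genes called with EPZ-6438 against N2B27 were 3752, and 724 with 1.5-fold required, 5641 with only the 2 groups fitted and 5771 without PXGL replicate 1 in the shared spread, with 2762 to 5771 over libraries left out. In the comparisons with PXGL 1.5-fold required left 2956 (N2B27) and 2928 (EPZ-6438) of 8505 and 8515. H2BC12, never called, turned to -0.033 in N2B27 against PXGL with total counts only; over libraries left out it was -0.11 to 0.11 there, -0.041 to 0.18 in EPZ-6438 against N2B27 and -0.0039 to 0.12 against PXGL, and H4C8 in EPZ-6438 against N2B27 was -0.20 to 0.56. H4C8 in N2B27 against PXGL was not called by DESeq2 (adjusted p = 0.0592). The cause of these shifts was not tested.

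Replicate numbers did not pair the libraries: correlations of same-numbered libraries' deviations were -0.026 to 0.037, under the limit of 0.1. With a replicate block the genes called were 3694, 8507 and 8489 and the members higher 0, 4 and 5.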
